A study of Mus musculus with 9 samples.

Results

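The 9 genes described here, which handle glutamine, glutamate, aspartate and the branched-chain amino acids, were followed in mouse dendritic cells (DCs): *Slc1a5*, *Glul*, *Glud1*, *Got1*, *Got2*, *Bcat1*, *Bcat2*, *Bckdha* and *Bckdhb*. They were taken by gene name from a count table of 55471 genes, and all 9 were found and passed the filter on low counts that left 16260 genes for testing. The DCs were grown from the bone marrow of wild-type C57BL/6 mice in GM-CSF, in a medium that itself contained glutamine. Each of the 3 groups had 3 RNA libraries, labelled A, B and C, and all groups were collected at 6 h: unstimulated DCs, DCs given 100 ng/mL LPS (lipopolysaccharide, a bacterial cell wall component sensed by TLR4) and DCs given 1000 U/mL IFN-β (a type I interferon). The sources used here do not say whether same-lettered samples came from 1 mouse, so p-values measure the spread between these samples, which may be technical.

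Glutamine enters cells through carriers such as SLC1A5, is made from glutamate and ammonia by glutamine synthetase, and, once turned back into glutamate, feeds the tricarboxylic acid (TCA) cycle as α-ketoglutarate. Aspartate aminotransferases join this pool to oxaloacetate and aspartate, and with the malate-aspartate shuttle they move reducing equivalents into mitochondria. Leucine, isoleucine and valine share their first steps: a transaminase passes their amino group to α-ketoglutarate, and the branched-chain keto acid dehydrogenase (BCKDH) complex then commits the carbon skeleton to oxidation in mitochondria. DCs stimulated through TLR4 are known to turn from oxidative phosphorylation towards glycolysis, and the question put to these genes is how transcripts of amino acid use stood at that time.

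The libraries held 33425803 to 43735199 counts. The cultures were checked against marker lists. The 10 dendritic and myeloid markers summed to 7179 to 8034 CPM (counts scaled to the library's effective size) in unstimulated DCs, 9285 to 9915 after LPS and 8138 to 8650 after IFN-β, with *Itgax* (CD11c) at 1375 ± 19.0 CPM (SD, n = 3) in unstimulated DCs. The highest of the 10 in unstimulated DCs were *Cd74* (2537 ± 338 CPM), *Csf2rb* (2327 ± 137) and *Itgax*. The lowest were *Flt3* (3.06 ± 1.26) and *Zbtb46* (32.5 ± 4.52). All 6 macrophage markers were detected too, led by *Csf1r* in unstimulated DCs (1101 ± 87.9 CPM). They summed to 1500 to 1819 CPM without a stimulus, 2300 to 2800 with LPS and 2024 to 2304 with IFN-β. The 6 neutrophil markers summed to 9.05 to 19.5, 12.1 to 22.5 and 8.82 to 15.6 CPM in the same order, mostly through *S100a8* and *S100a9*. The summed T cell, B cell, NK cell, mast cell and erythroid markers each stayed at or below 0.586 CPM. The 4 stromal markers summed to 2.99 to 4.72 CPM in unstimulated DCs, 21.0 to 37.6 after LPS and 3.09 to 4.70 after IFN-β. With LPS the sum came mostly from *Pdgfrb* (23.5 ± 7.55 CPM), which was at 0.714 ± 0.255 in unstimulated DCs and 0.645 ± 0.124 with IFN-β. The part of the macrophage, neutrophil and stromal markers in the results was not tested. In bulk RNA, fewer cells of a type and less RNA per cell cannot be told apart.

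The 250 bases before the RefSeq start (GRCm38.p6) are shown for *Bckdha* and *Bckdhb*, which encode the 2 chains of the first BCKDH enzyme and moved in opposite directions with LPS, and for *Got1*, the one of 8 members with an entry that held more than 1 kind of motif match. They run 5′ to 3′ in the direction of the gene, and capitals mark motif matches.
Bckdha, chr7:25658762-25659011, minus strand: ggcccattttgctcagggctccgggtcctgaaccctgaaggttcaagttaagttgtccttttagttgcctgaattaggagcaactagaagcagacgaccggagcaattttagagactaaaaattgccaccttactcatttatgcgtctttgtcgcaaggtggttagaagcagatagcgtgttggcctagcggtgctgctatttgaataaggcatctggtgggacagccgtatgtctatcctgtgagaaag
Bckdhb, chr9:83924887-83925136, plus strand: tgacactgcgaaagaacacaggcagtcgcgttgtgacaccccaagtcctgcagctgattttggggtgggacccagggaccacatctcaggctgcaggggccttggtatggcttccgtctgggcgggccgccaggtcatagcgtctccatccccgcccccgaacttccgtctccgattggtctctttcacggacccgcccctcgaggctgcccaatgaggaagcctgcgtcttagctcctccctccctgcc
Got1, chr19:43524606-43524855, minus strand: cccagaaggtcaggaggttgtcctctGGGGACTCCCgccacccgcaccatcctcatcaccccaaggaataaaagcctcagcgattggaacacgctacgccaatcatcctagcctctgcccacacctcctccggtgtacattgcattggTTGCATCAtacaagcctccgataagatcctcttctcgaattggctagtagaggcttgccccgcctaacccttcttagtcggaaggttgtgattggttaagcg
The 5 motifs searched on both strands were the interferon response element core GAAANNGAA, the gamma-activated site TTCNNNGAA, the E-box CACGTG, the amino acid response element core TGATGNAA and the kappaB motif. The *Got1* window held a kappaB match, read on either strand over the same bases, and an amino acid response element core on the reverse strand, and of all 32841 promoters of this length 7.25% and 3.45% held these. *Glul* held an interferon response element core (7.13% of all promoters). The windows of *Bckdha*, *Bckdhb*, *Bcat1*, *Bcat2*, *Glud1* and *Got2* held none of the 5, and *Slc1a5* had no entry. The gamma-activated site and E-box were in 7.02% and 6.02% of all promoters. The *Bckdhb* window had a GC content of 63.2% and 15 CpG dinucleotides, and that of *Bckdha* 47.6% and 8. Most of the *Bckdha* window lies inside the GENCODE gene, which ends at chr7:25658981, and the *Got2* and *Bcat1* windows also reach into theirs. *Bcat1*, *Bcat2* and *Bckdhb* each had 2 listed starts, of which only the 1 nearest the GENCODE start was searched. A match here is a description of letters, and binding was not measured.

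In unstimulated DCs the members spanned nearly the whole range of expression. Levels of different genes were compared as CPM per kb of annotated exon. *Glud1*, mitochondrial glutamate dehydrogenase, led with 59.7 ± 2.45 CPM per kb (SD, n = 3), above 96.8% of tested genes with a length. *Glul*, glutamine synthetase, followed at 31.7 ± 1.73. *Slc1a5* (23.1 ± 1.85) and the cytosolic aspartate aminotransferase gene *Got1* (22.7 ± 0.784) came next, and their ranges overlapped. The mitochondrial branched-chain transaminase gene *Bcat2* (11.1 ± 0.885) and the mitochondrial aspartate aminotransferase gene *Got2* (10.5 ± 0.111) overlapped as well. *Bckdha* (8.39 ± 1.08) and *Bckdhb* (2.51 ± 0.491) were lower, and *Bcat1*, the cytosolic branched-chain transaminase, lay at 0.0623 ± 0.011, with only 3.41% of tested genes below it. Unstimulated DCs thus carried the mitochondrial branched-chain transaminase transcript and very little of the cytosolic one. Levels per kb depend on the length used. With the longest transcript in place of the exon union, the means kept this order. *Slc1a5* then stood at 34.4 ± 2.75, nearer *Glul* (37.7 ± 2.05) than *Got1* (28.1 ± 0.967). The overlaps given here therefore hold for the exon union.

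**Figure D1:**
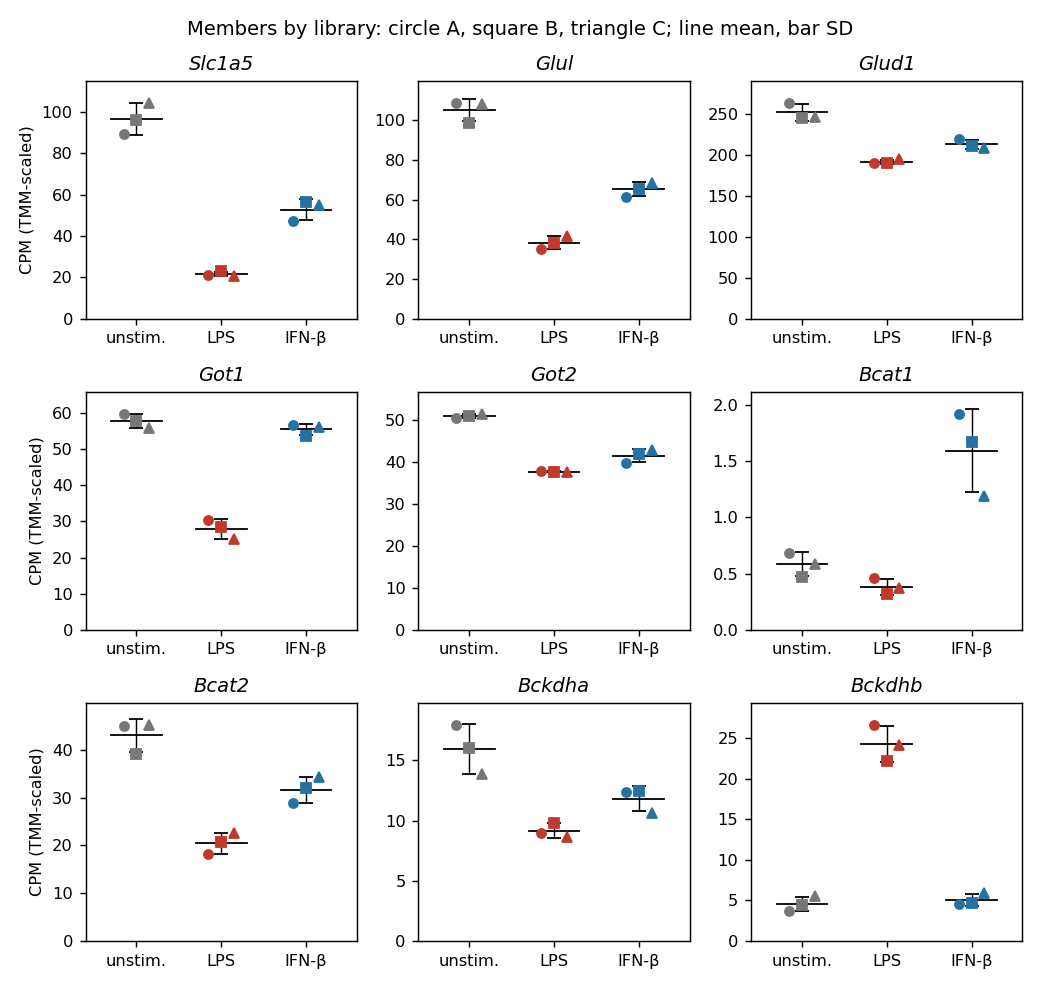
TMM-scaled CPM (linear axes from 0, 1 panel per gene) of the 9 genes in unstimulated, LPS-activated and IFN-β-treated DCs; circles, squares and triangles are libraries A, B and C, horizontal lines are means and bars SD (n = 3). *Bckdhb* lay at 22.2 to 26.6 CPM with LPS and below 6 CPM in both other groups, *Bcat1* stood highest with IFN-β, and the 8 genes other than *Bckdhb* were lowest with LPS.

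LPS lowered 7 of the 9 genes and raised 1, *Bckdhb*. Each gene was tested by the quasi-likelihood F-test of edgeR, with p-values adjusted by Benjamini-Hochberg over all 16260 genes, and a gene is said to rise or fall at an adjusted p below 0.05. LPS moved most of the transcriptome: 68.2% of tested genes were called, 32.8% higher and 35.4% lower, so 8 of 9 members called is to be read beside that share. The median log2 fold change of the members was −0.80, against −0.04 over all tested genes. All 9 members had groups that did not overlap between LPS-activated and unstimulated DCs, as did 72.4% of tested genes. The smallest exact two-sided permutation p that 3 against 3 libraries allow is 0.1.

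IFN-β lowered 6 of the 9 and raised 1, *Bcat1*. Here 46.9% of all tested genes were called, 23.6% higher and 23.3% lower, and the median of the members was −0.30 against −0.02 over all tested genes. The groups did not overlap for 7 of 9 members and for 58.1% of tested genes. Set directly against LPS, IFN-β-treated DCs had higher levels of 6 members and a lower level of 1, *Bckdhb*, while 49.1% of tested genes were called, 25.8% higher and 23.3% lower. The 9 members did not overlap between the 2 stimuli, nor did 56.8% of tested genes. The LPS and IFN-β contrasts share the unstimulated libraries.

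**Figure D2:**
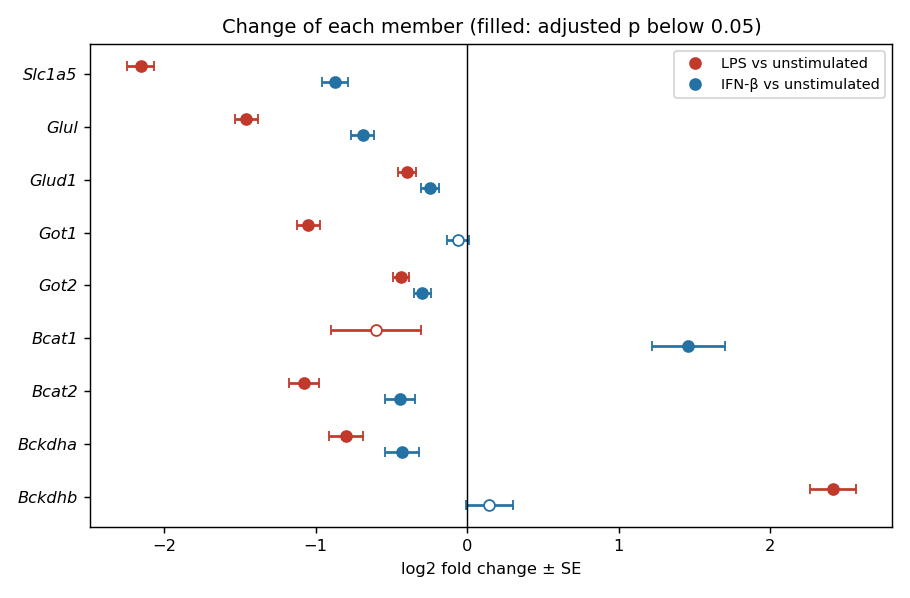
The log2 fold change ± SE of each gene in LPS-activated (red) and IFN-β-treated (blue) DCs against unstimulated DCs, from edgeR; filled points have an adjusted p below 0.05. LPS changes run from −2.16 (*Slc1a5*) to 2.42 (*Bckdhb*) and IFN-β changes from −0.87 (*Slc1a5*) to 1.46 (*Bcat1*).

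For glutamine uptake, *Slc1a5* (ENSMUSG00000001918, GRCm38 chr7:16781340-16798274, plus strand) encodes a sodium-dependent exchanger of glutamine and other neutral amino acids at the plasma membrane. It stood at 89.0, 95.8 and 104 CPM in the unstimulated libraries (A, B, C), at 21.3, 22.9 and 20.7 with LPS, and at 47.1, 56.3 and 54.8 with IFN-β. The 3 groups were fully apart, with LPS-activated DCs lowest. Its log2 fold change was −2.16 (SE 0.09, edgeR adjusted p = 1.3e-08) with LPS, a 4.46-fold fall, and 4.90% of tested genes fell further. With IFN-β it was −0.87 (SE 0.09, adjusted p = 2.2e-05), a 1.83-fold fall. The level with IFN-β was higher than with LPS by 1.28 on the log2 scale (SE 0.09, adjusted p = 1.1e-06).

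For glutamine synthesis, *Glul* (ENSMUSG00000026473, chr1:153899944-153909723, plus strand) encodes the only mammalian enzyme that makes glutamine. Its values were 109, 98.7 and 108 CPM in unstimulated DCs, 35.2, 38.2 and 41.6 with LPS, and 61.5, 65.6 and 68.6 with IFN-β, again 3 separate groups. It fell 2.75-fold with LPS (log2 fold change −1.46, SE 0.08, edgeR adjusted p = 6.3e-08) and less with IFN-β (−0.69, SE 0.08, adjusted p = 5.1e-05), and the difference between the stimuli was 0.77 (SE 0.08, adjusted p = 1.7e-05).

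*Glud1* (ENSMUSG00000021794, chr14:34310727-34345265, plus strand) encodes the enzyme that interconverts glutamate and α-ketoglutarate in mitochondria. It moved little: 263, 245 and 246 CPM in unstimulated DCs, 189, 189 and 194 with LPS, and 219, 210 and 208 with IFN-β. The falls were −0.40 (SE 0.06, edgeR adjusted p = 1.3e-04) and −0.24 (SE 0.06, adjusted p = 0.00643). Between the stimuli it differed by 0.15 (SE 0.06), which missed the threshold (edgeR adjusted p = 0.0532) and passed it with the letters as a replicate block (adjusted p = 0.0306). So the gene for making glutamine lost more of its transcript than the gene for oxidizing glutamate. The ratio of *Glul* to *Glud1* within a library, in counts per kb, was 0.531 ± 0.0234 (SD, n = 3 in each group) in unstimulated DCs, 0.254 ± 0.0181 after LPS and 0.390 ± 0.0312 after IFN-β, and the 3 groups did not overlap (exact permutation p = 0.1 for each pair, the smallest possible).

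Among the aspartate aminotransferases, *Got1* (ENSMUSG00000025190, chr19:43499752-43524605, minus strand) encodes the cytosolic and *Got2* (ENSMUSG00000031672, chr8:95864134-95888547, minus strand) the mitochondrial enzyme, which work as partners in the malate-aspartate shuttle. *Got1* stood at 59.8, 57.6 and 55.8 CPM in unstimulated DCs, 30.4, 28.3 and 25.0 with LPS, and 56.6, 53.7 and 56.0 with IFN-β. LPS-activated DCs were apart from both other groups, which overlapped. *Got1* fell 2.07-fold with LPS (log2 fold change −1.05, SE 0.08, edgeR adjusted p = 5.1e-07). With IFN-β its log2 fold change was −0.06 (SE 0.07, adjusted p = 0.549), and the direct difference between the stimuli was 0.99 (SE 0.08, adjusted p = 2.2e-06). *Got2* was at 50.3, 50.8 and 51.4 CPM in unstimulated DCs, 37.7, 37.5 and 37.6 with LPS, and 39.7, 41.8 and 42.8 with IFN-β. It fell with both stimuli, by 0.44 on the log2 scale with LPS (SE 0.06, edgeR adjusted p = 3.8e-05) and by 0.30 with IFN-β (SE 0.05, adjusted p = 0.00135). The stimuli differed by 0.14 (SE 0.06, adjusted p = 0.0559, and 0.0337 with the replicate block). A *Got2* pseudogene elsewhere in the genome had 40 counts over all 9 libraries, against at least 1066 counts of *Got2* in each.

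The balance of cytosolic to mitochondrial transcript therefore moved in opposite directions. The *Got1* to *Got2* ratio was 2.26, 2.16 and 2.06 in the unstimulated libraries (A, B, C), 1.53, 1.44 and 1.26 with LPS, and 2.71, 2.44 and 2.49 with IFN-β. No library of one group reached another group (exact permutation p = 0.1 for each pair). The mean log2 ratio was lower by 0.62 with LPS (difference −0.62) and higher by 0.24 with IFN-β. These shifts do not depend on the gene length used, but the level of the ratio does. Per kb of the longest transcript, *Got1* stood at 13.6 ± 1.32 CPM and *Got2* at 14.9 ± 0.0504 with LPS (SD, n = 3).

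For branched-chain transamination, *Bcat2* (ENSMUSG00000030826, chr7:45570153-45589711, plus strand) encodes the mitochondrial transaminase found in most tissues. It was at 44.9, 39.1 and 45.3 CPM in unstimulated DCs, 18.1, 20.6 and 22.5 with LPS, and 28.8, 32.0 and 34.3 with IFN-β, with no overlap between groups. It fell with LPS (log2 fold change −1.08, SE 0.10, edgeR adjusted p = 3.5e-06) and with IFN-β (−0.44, SE 0.10, adjusted p = 0.00375), and the 2 stimuli differed by 0.63 (SE 0.10, adjusted p = 4.1e-04).

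*Bcat1* (ENSMUSG00000030268, chr6:144993835-145076184, minus strand), the cytosolic form, was the one member that rose with IFN-β. Its read counts were 27, 21 and 26 in unstimulated libraries, 13, 11 and 12 with LPS, and 82, 63 and 43 with IFN-β, so counting error is large. In CPM these were 0.684, 0.472 and 0.587, then 0.460, 0.320 and 0.369, and then 1.92, 1.67 and 1.19. All libraries lay above 0.106 CPM, the highest level at which 3 counts lie in any library. *Bcat1* rose 2.75-fold with IFN-β (log2 fold change 1.46, SE 0.24, edgeR adjusted p = 6.8e-04), and 5.04% of tested genes rose further. With LPS its log2 fold change was −0.60 (SE 0.30, adjusted p = 0.0935), and between the stimuli it differed 4.18-fold (2.06, SE 0.27, adjusted p = 1.1e-04). Even so, *Bcat1* made up only 2.11% ± 0.642 of the 2 transaminase transcripts per kb with IFN-β, against 0.569% ± 0.0677 in unstimulated DCs and 0.824% ± 0.231 with LPS (SD, n = 3 each). The log2 ratio of *Bcat1* to *Bcat2* was higher by 1.87 with IFN-β and by 0.51 with LPS than in unstimulated DCs, with no overlap in either case (exact permutation p = 0.1).

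The first enzyme of the BCKDH complex, the E1 component, is a tetramer of α chains, encoded by *Bckdha* (ENSMUSG00000060376, chr7:25629946-25658981, minus strand), and β chains, encoded by *Bckdhb* (ENSMUSG00000032263, chr9:83925145-84124240, plus strand). *Bckdhb* stood at 3.72, 4.40 and 5.48 CPM in unstimulated DCs, 26.6, 22.2 and 24.1 with LPS, and 4.54, 4.65 and 5.94 with IFN-β. LPS-activated DCs were far above both other groups, which overlapped. The rise with LPS was 5.34-fold (log2 fold change 2.42, SE 0.15, edgeR adjusted p = 1.7e-07), and 5.31% of tested genes rose further. With IFN-β the log2 fold change was 0.15 (SE 0.16, adjusted p = 0.468), and it was −0.16 with scaling by library size alone. The level with IFN-β was below that with LPS by 4.82-fold (log2 fold change −2.27, SE 0.15, adjusted p = 7.9e-07). No other annotated gene shares exon bases with *Bckdhb*.

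*Bckdha* went the other way. It was at 17.9, 16.0 and 13.8 CPM in unstimulated DCs, 8.99, 9.82 and 8.63 with LPS, and 12.4, 12.5 and 10.6 with IFN-β. LPS lowered it (log2 fold change −0.80, SE 0.11, edgeR adjusted p = 8.1e-05) and so did IFN-β (−0.43, SE 0.11, adjusted p = 0.00815). The stimuli differed by 0.37 (SE 0.11, adjusted p = 0.0193), a call lost without LPS library A or C or IFN-β library A or B (adjusted p = 0.0566, 0.0702, 0.0614 and 0.0660). These values are uncertain, because 61.7% of the *Bckdha* exon bases lie over *B3gnt8*, a glycosyltransferase gene on the opposite strand, and which strand setting was counted is not given in the sources used here. *B3gnt8* itself had a log2 fold change of −2.44 with LPS (SE 0.11, edgeR adjusted p = 2.4e-08) and −0.15 with IFN-β (SE 0.10, adjusted p = 0.246), and its part in the *Bckdha* values was not tested.

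Within a library, *Bckdha* to *Bckdhb* stood at 4.57, 3.46 and 2.39 in counts per kb in unstimulated DCs and at 0.321, 0.421 and 0.341 with LPS. IFN-β gave 2.58, 2.55 and 1.70. By these counts the α chain made up 76.7% ± 5.79 of the E1 transcripts in unstimulated DCs, 68.9% ± 5.22 with IFN-β and 26.5% ± 2.81 with LPS (SD, n = 3 each). The ratios and shares carry the uncertainty of the *Bckdha* values, since 61.7% of its exon bases lie over *B3gnt8*. The ratio turned over with LPS, a 9.36-fold shift with no overlap between groups (exact permutation p = 0.1, the smallest possible). With IFN-β the groups overlapped (exact permutation p = 0.3, a test that does not use the letters). Within each of the 3 letters the log2 ratio was lower with IFN-β than in unstimulated DCs, by 0.59 ± 0.206 on average (difference −0.59, SD over 3 pairs), and the exact two-sided sign-flip p was 0.25, the smallest that 3 pairs allow. In the order of levels per kb of annotated exon, *Bckdhb* moved from 8th in unstimulated DCs to 2nd with LPS, at 13.5 CPM per kb. There its range overlapped that of *Glul*, and with IFN-β it was 8th again.

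**Figure D3:**
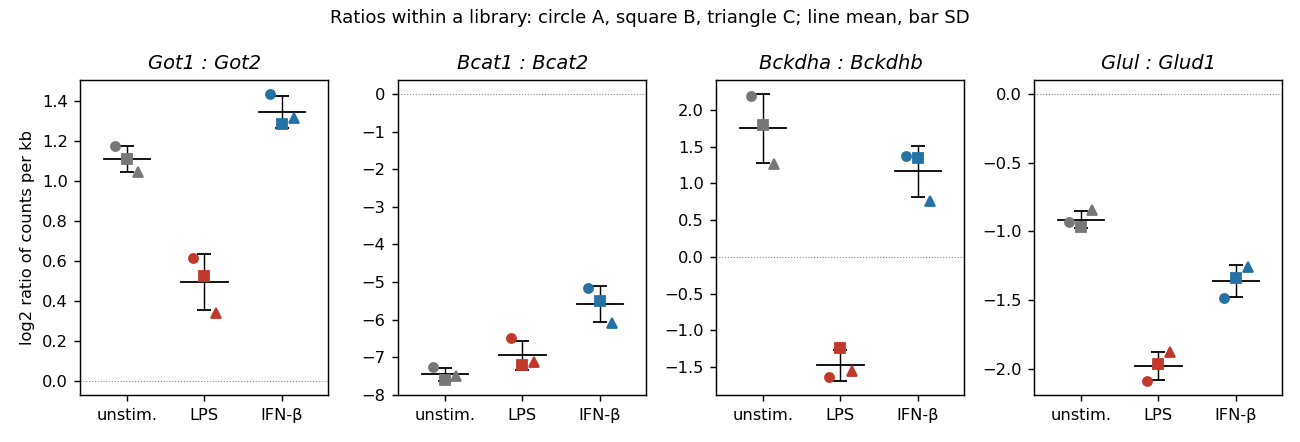
The log2 ratio of counts per kb of each gene pair within a library (0.5 added to each count) in unstimulated, LPS-activated and IFN-β-treated DCs. Symbols are libraries A, B and C, lines means and bars SD (n = 3). The dotted line marks equal levels per kb of annotated exon. With LPS the *Bckdha* to *Bckdhb* ratio lies at 0.321 to 0.421 on the linear scale, below equality, while all 6 libraries of the other groups lie above it.

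The rest of the BCKDH complex and its regulators was read from a list of 4 further genes, all tested. With LPS 3 of 4 were called, 2 higher and 1 lower, and with IFN-β 3 of 4, 1 higher and 2 lower. All list counts are to be read beside the shares over all tested genes. These were 68.2% called with LPS (32.8% higher, 35.4% lower) and 46.9% with IFN-β (23.6% higher, 23.3% lower). *Ppm1k*, the phosphatase that switches the complex on, rose from 13.3 ± 0.351 CPM to 74.6 ± 17.9 with LPS (log2 fold change 2.48, edgeR adjusted p = 3.8e-07) and 39.7 ± 7.03 with IFN-β (1.58, adjusted p = 4.0e-05). *Bckdk*, the kinase that switches it off, fell with both (−0.66, adjusted p = 8.0e-05, and −0.25, adjusted p = 0.0410). The phosphatase and kinase genes thus moved apart with both stimuli. The 2 E1 genes did so only with LPS, and there the *Bckdha* values are uncertain. *Dbt*, the E2 core, had a log2 fold change of −0.01 with LPS (adjusted p = 0.869) and fell by 0.64 with IFN-β (adjusted p = 7.3e-05). *Dld*, the E3 subunit that other mitochondrial dehydrogenases also use, rose by 0.40 with LPS (adjusted p = 0.00115) and had 0.05 with IFN-β (adjusted p = 0.649).

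Downstream of the complex the direction was mostly down. Of 17 genes of branched-chain catabolism after the dehydrogenase, 13 fell and 1 rose with LPS (median log2 fold change −0.88), and 11 fell and 2 rose with IFN-β (median −0.40). *Pccb*, a propionyl-CoA carboxylase subunit, fell by 2.19 and 1.65 on the log2 scale (edgeR adjusted p = 9.8e-07 and 2.4e-05). *Hibch*, of the valine branch, fell by 1.80 and 1.37 (adjusted p = 7.2e-05 and 7.2e-04). *Acadsb*, the short/branched-chain acyl-CoA dehydrogenase, rose by 0.88 and 0.59 (adjusted p = 4.8e-07 and 3.5e-05). *Hibadh*, the next enzyme of the valine branch after *Hibch*, rose with IFN-β by 0.74 (adjusted p = 4.8e-05), and with LPS its log2 fold change was 0.09 (adjusted p = 0.331). The rise of *Bckdhb* with LPS was therefore not shared by most transcripts of the steps that follow it.

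The other genes of glutamine and glutamate metabolism were also mostly lower. Of 19 listed enzymes 14 were tested: 8 fell and 3 rose with LPS (median −0.67), and 8 fell and 1 rose with IFN-β (median −0.53). The little expressed *Gls2* rose by 1.35 on the log2 scale with LPS (edgeR adjusted p = 0.00279). With IFN-β its log2 fold change was 0.78 (adjusted p = 0.0692, and 0.0305 with the replicate block). *Prodh*, the first enzyme of proline breakdown, fell by 2.24 and 1.29, and *Aldh18a1*, of proline synthesis, by 1.69 and 0.60 with LPS and IFN-β (adjusted p at most 0.00109). *Gclm*, a subunit of the enzyme that starts glutathione synthesis, fell by 1.08 with IFN-β (adjusted p = 0.00506). Its LPS log2 fold change was −0.59 (adjusted p = 0.0558, called with the replicate block at 2.4e-06). *Nit2* rose with both, by 0.35 and 0.31 (adjusted p = 0.00525 and 0.0147). The alanine aminotransferase genes fell with LPS, *Gpt2* by 0.74 and *Gpt* by 0.86 (adjusted p = 0.0020 and 0.0149). With IFN-β they had 0.25 (adjusted p = 0.213, and 0.0330 with the replicate block) and −0.41 (adjusted p = 0.218).

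Enzymes that spend glutamine's amide group split. Of 10 amidotransferase genes, 6 fell and 2 rose with LPS (median −0.79), and 5 fell and 0 rose with IFN-β (median −0.28); edgeR's unadjusted p under 0.05 and DESeq2 likewise gave 0 that rose. *Cad* and *Ctps*, of pyrimidine synthesis, fell by 2.94 and 2.69 with LPS and by 1.96 and 1.64 with IFN-β (edgeR adjusted p at most 9.7e-05). *Gfpt1* and *Gfpt2*, which open the hexosamine pathway, rose with LPS by 1.05 and 2.44 (adjusted p = 6.3e-07 and 2.6e-05), and with IFN-β had 0.07 and 0.28 (adjusted p = 0.460 and 0.516). *Asns*, asparagine synthetase, had −0.16 and −0.31 (adjusted p = 0.273 and 0.0625, the latter 0.00989 with the replicate block).

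Among 9 tested enzymes of aspartate metabolism, 6 fell and 1 rose with LPS (median −0.62). With IFN-β 4 fell and 1 rose (median −0.54). The gene that rose was *Ass1*, argininosuccinate synthase, from 736 ± 95.7 CPM to 1033 ± 108 with LPS and 1108 ± 158 with IFN-β (log2 fold change 0.49 and 0.59, edgeR adjusted p = 0.00668 and 0.00397). *Adssl1*, of the purine nucleotide cycle, fell by 1.69 with LPS (adjusted p = 5.1e-07) and had −0.12 with IFN-β (adjusted p = 0.442). *Paics*, of purine synthesis, fell by 1.25 and 0.73 (adjusted p = 5.4e-07 and 9.3e-05).

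Of the 5 other genes of the malate-aspartate shuttle, in which the *Got* enzymes work, 4 fell and 1 rose with LPS (median −0.40), and 3 fell and 1 rose with IFN-β (median −0.27). The 2 aspartate-glutamate carriers of the inner membrane moved apart: *Slc25a12* rose by 1.39 and 1.06 and *Slc25a13* fell by 0.75 and 0.34 with LPS and IFN-β (edgeR adjusted p at most 0.00251). *Mdh1*, cytosolic malate dehydrogenase, fell by 0.55 and 0.30 (adjusted p = 6.9e-05 and 0.00759). Of 4 tested mitochondrial carriers, which include both of these, 3 rose and 1 fell with each stimulus (medians 0.95 and 0.68). *Slc25a22*, a mitochondrial glutamate carrier, rose from 27.8 ± 3.08 to 176 ± 19.0 CPM with LPS and 102 ± 4.81 with IFN-β.

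Carriers outside the mitochondria held the widest range. Of 18 listed, 13 were tested: 8 fell and 4 rose with LPS (median −0.49), and 5 fell and 4 rose with IFN-β (median −0.01). The list includes *Slc38a7* and *Slc38a9*, which are known from lysosomes. Without them 7 of 11 fell and 4 rose with LPS (median −0.49), and 5 fell and 3 rose with IFN-β (median −0.15). *Slc1a2*, a glutamate carrier best known from astrocytes, went from 0.260 ± 0.140 CPM in unstimulated DCs to 198 ± 26.2 after LPS and 1.40 ± 0.599 after IFN-β (log2 fold change 9.53 and 2.36, edgeR adjusted p = 3.8e-09 and 8.7e-04). *Slc7a11*, the cystine-glutamate exchanger, rose with LPS by 2.09 (adjusted p = 1.1e-06). With IFN-β it had 0.28 (adjusted p = 0.182, and 0.00474 with the replicate block). *Slc7a8* rose by 2.04 with LPS and by 2.12 with IFN-β (adjusted p = 2.5e-07 and 1.7e-06). The heavy chain *Slc3a2* rose by 1.84 and 0.92. Of its leucine-carrying partners, *Slc7a5* fell by 1.12 and 0.34, while *Slc7a8* rose as given above (adjusted p at most 0.0250). *Slc43a2* and *Slc38a1*, carriers of large neutral amino acids and of glutamine, fell by 3.19 and 1.99 with LPS. *Slc38a1* and *Slc7a6* fell by 1.20 and 1.25 with IFN-β. The fall of *Slc1a5* thus stood beside that of *Slc38a1*, another glutamine carrier, with both stimuli. With LPS it also stood beside rises of *Slc1a2* and *Slc7a11*.

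**Figure D4:**
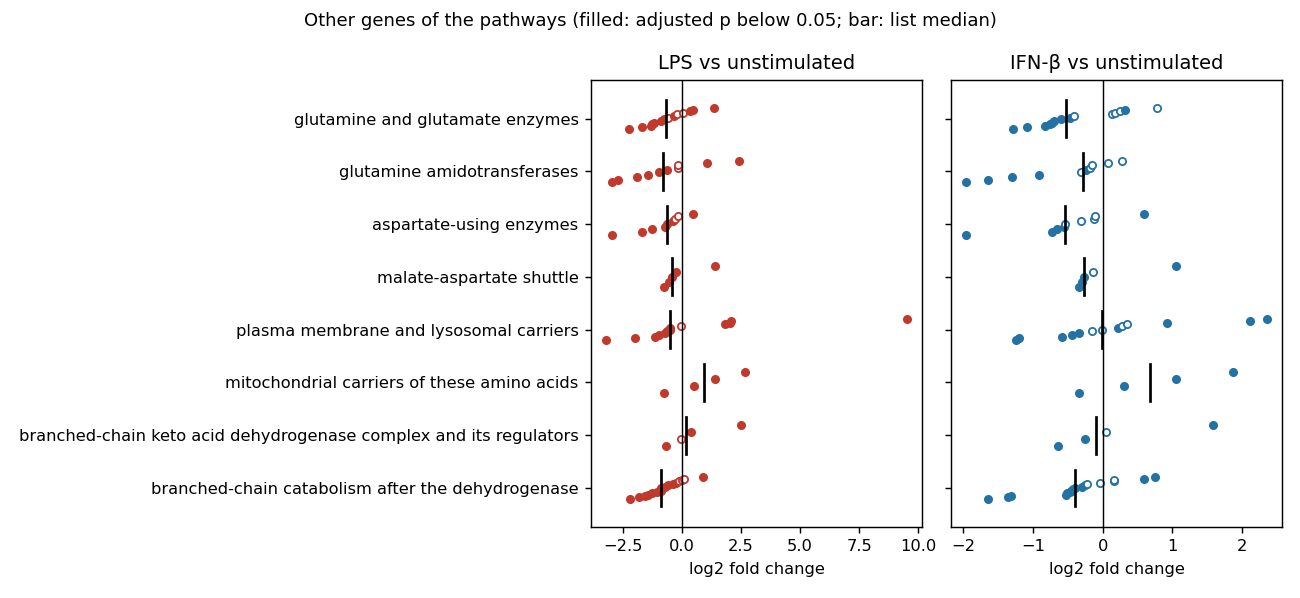
The log2 fold change of the tested genes of each list, members left out, in LPS-activated (left) and IFN-β-treated (right) DCs against unstimulated DCs; each point is a gene, filled at an adjusted p below 0.05, and the bars are list medians. The x axes differ in range. The *Slc1a2* point lies at 9.53 in the left panel, and the downstream branched-chain genes have medians of −0.88 and −0.40.

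Counted once each, 72 tested genes of these lists held 16 that rose and 45 that fell with LPS, and 12 that rose and 37 that fell with IFN-β, with medians of −0.58 and −0.28. Over all tested genes 32.8% rose and 35.4% fell with LPS, and 23.6% rose and 23.3% fell with IFN-β. The 12 remaining listed genes were too low to test, among them *Gad1*, *Gad2* and *Abat*. The housekeeping gene *Hprt* had a log2 fold change of −0.41 with LPS (edgeR adjusted p = 2.4e-04) and −0.13 with IFN-β (adjusted p = 0.138). Without TMM factors the median over all genes would lie lower by 0.58 with LPS and by 0.31 with IFN-β, with 21.9% and 22.3% of calls higher in place of 48.1% and 50.3%. Directions are therefore relative to that centre, whereas the ratios within a library do not depend on it.

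The genes whose patterns over the 9 libraries were most like each member were ranked by Pearson's r of log2(CPM + 0.5), a description over libraries that fall into 3 groups. For *Slc1a5* these were *Myo7a*, *Dnajc9* and *Bin1* (r = 0.999 for the first), for *Glul* *Aco1*, *Tfdp2* and *Xxylt1* (0.998), and for *Glud1* *Tmem141*, *Abhd8* and *Sesn1* (0.992). *Tiam1* and *Tifab* were among the 3 closest to *Got1* (0.997 and 0.996), and *Got2* was closest to *Tmem109*, *Wdr12* and *Grwd1* (0.997). *Bcat1* was closest to *Kif19a*, *Zfp275* and *Scml4* (0.983), and *Bcat2* to *Slc50a1*, *Dym* and *Hadh* (0.995). For *Bckdha* these were *Zfp703*, *Ahdc1* and *Mex3d* (0.991), and for *Bckdhb* *Trim36*, *Tarm1* and *Eif4e* (0.998). No member was among the 3 closest genes of another member.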

How the data were processed

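RNA was taken from 3 libraries per group, depleted of rRNA and sequenced in paired ends, and per the labels and the study's methods reads were trimmed with Trim Galore 0.6.0, aligned to mm10 with STAR (2.7.8a in the submitters' processing notes) and counted per gene by STAR. The study's methods name an earlier STAR version, and for counting an earlier GENCODE release than the M21 used here for lengths. The authors deposited these raw counts. The strand column they took is not given in the sources used here.

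All 9 libraries (33425803 to 43735199 counts) were fitted together with edgeR 4.0.16 in R 4.3.3: TMM factors (0.783 to 1.26), filterByExpr, 1 term per group, quasi-likelihood F-tests and Benjamini-Hochberg adjustment over 16260 genes. CPM are TMM-scaled; a level of 3 counts is 0.0674 to 0.106 CPM. Levels per kb use the exon union of GENCODE M21, which held 55144 of the 55471 identifiers. With the longest transcript as the length, the unstimulated levels of 8 of the 9 members moved by more than their SD. Promoters come from RefSeq. Ratios add 0.5 to each count. Single values were compared by exact two-sided permutation tests with scipy 1.17.1. The fitting code was tested on simulated data.

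The genes named are the 9 members, *Hprt*, markers, partners of a member in its step, the 2 largest rises and falls in each list under each stimulus, and the 3 genes most like each member; *B3gnt8* was added after its overlap was seen. Of the genes this rule names, 2 are not reported here. The members and lists were chosen with earlier results of these data known.

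Same-lettered libraries deviated together (mean correlation of deviations 0.394 over 9 pairs, lowest 0.134; different letters −0.194 over 18 pairs). The letters thus pair the samples by the data, though the labels name no shared culture. The fit and permutation tests reported do not use the letters. For single members and named list genes, a fit with the letters as a replicate block is given where it changes the call. Counts of called genes come from the fit without letters. The block called 11950 genes in place of 11084 with LPS and 9151 in place of 7631 with IFN-β. Of the listed glutamine and glutamate enzymes it called 13 in place of 11 with LPS and 11 in place of 9 with IFN-β. For amidotransferases it called 9 in place of 8 and 7 in place of 5. Alternatives were DESeq2 1.42.0, other scaling and filters, the replicate block, only the groups compared, and leaving out each library. Those chosen after seeing the data were the carrier list without its lysosomal genes, and ratios compared within letters.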

Additional observations from a re-analysis of the deposited data

Results flagged for a closer look

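*Slc38a9*, a lysosomal amino acid transporter that senses arginine, was the one gene of the 81 tested members and list genes called in opposite directions by the 2 stimuli. Its level was 37.7 ± 1.51 CPM without a stimulus, 24.3 ± 1.58 after LPS and 43.8 ± 2.24 after IFN-β (SD, n = 3 each). Its log2 fold change was −0.64 with LPS and 0.22 with IFN-β, and the direct difference of IFN-β against LPS was 0.85 (SE 0.07, quasi-likelihood F-test of edgeR, Benjamini-Hochberg adjusted p = 4.4e-06). Of all 16260 tested genes, 286 (1.76%) were called in opposite directions, against 1 of 81 (1.23%) here. None of the 9 members was among them.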

How the results depend on the processing

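Of 432 refits of the members (27 combinations of gene and comparison under 16 alternatives), 415 kept their direction and their side of the threshold. With scaling by library size alone the *Bckdhb* change with IFN-β turned to −0.16 (adjusted p = 0.404), and *Got1* with IFN-β (−0.36, adjusted p = 6.4e-04) and *Bcat1* with LPS (−1.18, adjusted p = 0.00320) passed the threshold. The same setting called 9 amidotransferase genes with IFN-β in place of 5, and 8 genes of aspartate metabolism in place of 5 (8 with upper-quartile factors as well). For IFN-β against LPS it called 7 genes of aspartate metabolism in place of 4, and 2 mitochondrial carriers in place of 4. Scaling by library size alone shifts the centre of all genes, as given for the medians. The difference of *Glud1* between the stimuli was called in 6 alternatives (0.15 to 0.43), including without unstimulated library A, and that of *Got2* in 4 (0.14 to 0.42), including without IFN-β library A. The *Bckdha* difference lost its call in 4 of 9 fits that left out 1 library, at log2 differences of 0.32 to 0.35. The replicate block changed no other member call than those of *Glud1* and *Got2*. The cause of these changes was not tested. Read counts of 11 to 82 limit *Bcat1*, and the strand setting limits *Bckdha*.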
